A study of Mus musculus with 2 samples.

Results

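The T cell receptor constant genes and the genes of the CD3 chains were followed across the T cell, NK cell and innate lymphoid cell gates of mouse liver. The set was the 10 rows of both count matrices named Trac, Trbc1, Trbc2, Trdc, Trgc1, Trgc2, Trgc4, Cd3d, Cd3e and Cd3g, out of 33696 rows in all, and each symbol had 1 row. The study held 2 single-cell RNA libraries of CD45+ (leukocyte) cells sorted from the liver of wild-type C57BL/6J mice, 1 library per group. The untreated group (UT) had no injection. The ConA group had concanavalin A, a plant lectin that activates T cells and inflames the liver, at 10 mg/kg into a vein 1 time a week for 3 weeks, a regimen the submitters describe as a model of immune tolerance. Untreated mice were matched to treated mice by age. Neither the ages, the number of mice pooled in a library nor the delay after the last injection is given in the sources used here. With 1 library per group no test between the groups is possible: every interval below is a 95% interval for counting error only, and a difference outside it is a difference between these libraries.

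The receptor of most T cells is a pair of alpha and beta chains, and that of a smaller lineage a pair of gamma and delta chains. Each chain joins a variable part, assembled by gene rearrangement, to a constant part encoded by Trac (alpha), Trbc1 or Trbc2 (beta), Trdc (delta) and Trgc1, Trgc2 or Trgc4 (gamma). Neither pair can signal by itself, and both depend for transport to the surface and for signalling on the CD3 delta, epsilon and gamma chains (Cd3d, Cd3e, Cd3g) and on the zeta chain (Cd247), which NK cells also use below other receptors. NK cells and group 1 innate lymphoid cells (ILC1) do not rearrange these genes, but constant genes can be transcribed without a joined variable part. A library read from the 3′ end of transcripts counts the constant part in either case.

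The constant genes come in copies of differing likeness, which sets how far their UMIs (unique molecular identifiers, 1 per captured transcript) can be told apart. In the mouse annotation at hand (GRCm38, an older build than the mm39 named in the submitters' processing notes) the coding exons of Trbc1 lie at chr6:41538218-41539662 and those of Trbc2 at chr6:41546730-41548178, both on the plus strand. Their coding sequences of 518 bases matched at 95.6% of positions. The 23 differences were not spread evenly: 1 lay before base 377, and the other 22 fell within the last 142 coding bases, the part nearest the 3′ end from which the libraries were read. These last bases are shown 5′ to 3′ with the differing bases in capitals.
Trbc1: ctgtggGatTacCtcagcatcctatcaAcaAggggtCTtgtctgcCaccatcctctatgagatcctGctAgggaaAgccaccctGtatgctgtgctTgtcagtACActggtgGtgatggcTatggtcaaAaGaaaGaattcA
Trbc2: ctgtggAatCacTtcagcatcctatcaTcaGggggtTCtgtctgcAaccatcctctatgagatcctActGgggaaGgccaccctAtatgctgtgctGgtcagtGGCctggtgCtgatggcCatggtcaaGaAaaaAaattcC

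Among the gamma constant genes, Trgc1 (chr13:19214103-19216615, plus strand) and Trgc2 (chr13:19305063-19307551, minus strand) matched at 97.4% of 500 aligned coding bases, with 13 differences. Trgc4 (chr13:19344558-19352340, plus strand) was less alike, at 80.2% against Trgc1 and 82.0% against Trgc2. The last 100 coding bases of Trgc1 are shown with the stretches of the other genes that align to them. Capitals mark, in Trgc1, the bases that differ from Trgc2, and, in Trgc2 and Trgc4, those that differ from Trgc1.
Trgc1: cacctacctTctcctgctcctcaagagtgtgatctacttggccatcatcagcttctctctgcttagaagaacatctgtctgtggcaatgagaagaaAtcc
Trgc2: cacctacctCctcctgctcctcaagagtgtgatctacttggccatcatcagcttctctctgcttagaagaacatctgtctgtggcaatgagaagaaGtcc
Trgc4: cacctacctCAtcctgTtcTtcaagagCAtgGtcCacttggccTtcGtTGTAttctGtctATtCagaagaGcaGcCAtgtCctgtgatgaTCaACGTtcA
Trgc2 differed from Trgc1 at 2 of these bases and Trgc4 at 30. The division of UMIs between Trgc1 and Trgc2 is therefore uncertain, that between Trbc1 and Trbc2 less so, and Trgc4 is the best separated. Transcript beyond the coding part was not compared. Another near-identical copy, Trgc3, had 1 UMI in the untreated and 12 in the ConA library. Trac (chr14:54220521-54223094) and Trdc (chr14:54142851-54144315), both on the plus strand, lie in 1 locus.

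Cells were assigned to gates by other genes, never by a member of the set, and levels are UMIs per 1000000 UMIs of the gate (CPM). After filters 15294 untreated and 15399 ConA cells remained, with median depths of 2898 and 3231 UMIs, and 82 cell barcodes occurred in both libraries. Untreated first, the gates held 322 and 1520 cells for CD8 T (a Cd8b1 UMI and a T cell gene), 268 and 801 for CD4 T (Cd4), 178 and 892 for Zbtb16+ T (Zbtb16 encodes PLZF, the regulator of NKT and other innate-like T cells), 14 and 299 for gamma-delta T (2 genes among Sox13, Scart1, Scart2 and the gamma and delta variable genes), 144 and 169 for NK (Ncr1 with Eomes, S1pr5 or Itga2) and 31 and 155 for ILC1 (Ncr1 with Cxcr6 or Itga1). Together these were 6.26% and 24.9% of the cells. The gates also excluded cells with 2 or more genes of another lineage. Of the cells with Trac, a Trbc and a CD3 gene, 26% of the untreated and 50.9% of the ConA cells lay in a gate. Among those outside, 67.4% and 34.9% had 2 or more mononuclear phagocyte genes. Gate sizes are therefore not compared between the libraries, and results are also given with a looser exclusion, chosen after seeing the data, where it changed them.

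Marker lists that no gate used told some gates apart and not others. The NK list of 7 genes summed to 13336 and 11049 CPM in the NK gate, its highest sum, and the gamma-delta list of 5 to 1409 and 2331 CPM in the gamma-delta gate, also its highest. The CD4 T list was at 335 and 344 CPM in the CD4 T gate, against 269 and 335 CPM in the gamma-delta gate. Cd8a stood at 250 and 309 CPM in the CD8 T gate and at 4.64 and 13.6 CPM in NK cells, but the CD8 T list as a whole was lower in CD8 T (1339 and 1712 CPM) than in NK cells (2877 and 2662 CPM), where Nkg7 made up nearly all of it. The Zbtb16+ list was likewise lower in its own gate (2303 and 2114 CPM) than in the NK (4226 and 3994 CPM) and ILC1 (2915 and 3374 CPM) gates. The ILC1 list of 6 did not mark the ILC1 gate: at 767 and 1308 CPM it was above the NK gate (107 and 262 CPM) but below untreated CD8 T (1106 CPM), CD4 T (1015 CPM) and Zbtb16+ cells (842 CPM) and below the gamma-delta gate of both libraries (1393 and 2152 CPM). The NK list, with 5 and 7 of its 7 genes detected, reached 9358 and 5481 CPM in the ILC1 gate. Gate names therefore stand for the rules that set them. The untreated gamma-delta gate, with 14 cells, is given as values only. Haemoglobin UMIs (Hba-a1 and Hbb-bs) were higher in the ConA library in every gate, from 2771 to 10077 CPM in CD8 T cells for example, and their part in the results was not tested.

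Free RNA was measured in B cells, which lack these transcripts. In the B gate (1295 and 1735 cells) each member stood at 11.7% to 22.4% of its level over all untreated cells and at 12.3% to 19.3% in the ConA library. Trac was at 19.2 CPM in untreated and 41.5 CPM in ConA B cells, and Cd3g at 25.7 and 50.9 CPM. The B gate leaves out cells with a T cell gene, so it may understate this background. Trac was thus 2.16-fold higher in ConA than in untreated B cells. Mononuclear phagocytes had lower levels, Trac at 9.09 and 24.5 CPM.

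**Figure D1:**
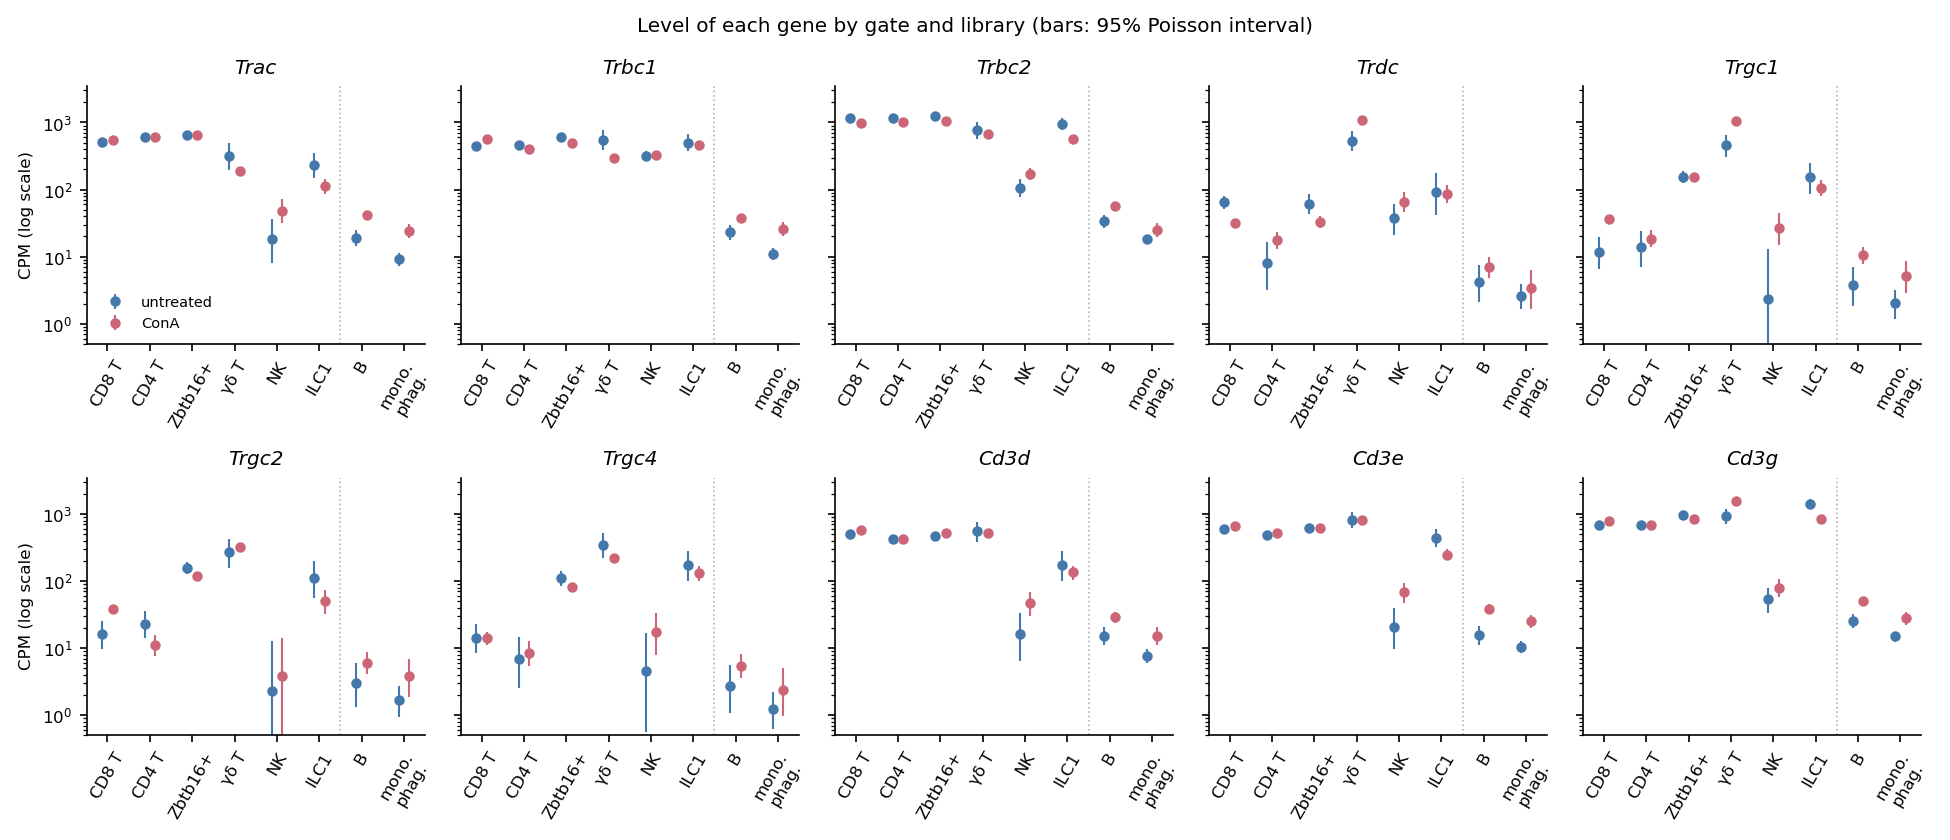
Level of each of the 10 genes (CPM, log scale) in 6 lymphocyte gates and, right of the dotted line, B cells and mononuclear phagocytes. Points are the untreated (blue) and ConA (red) libraries, bars are 95% Poisson intervals. Trac falls to the B cell level in the NK gate, whereas Trbc1 (318 and 323 CPM) and, in the ILC1 gate, Cd3g (1432 and 849 CPM) do not.

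The alpha-beta receptor and its CD3 chains stood at nearly the same level in the libraries in all 3 gates of alpha-beta T cells. Over Trac, Trbc1, Trbc2, Cd3d, Cd3e and Cd3g in the CD8 T, CD4 T and Zbtb16+ gates, all 18 log2 ratios of ConA over untreated lay between -0.31 and 0.34, within 1.5-fold. Trac, the alpha constant gene, was at 509 and 548 CPM in CD8 T cells, 615 and 614 CPM in CD4 T cells and 642 and 645 CPM in Zbtb16+ cells. These 3 pairs differed by less than their counting intervals in the gates as first set. Trbc2 was the most abundant member in each of these gates, at 1148 and 971 CPM in CD8 T cells, 1179 and 1020 CPM in CD4 T cells and 1254 and 1066 CPM in Zbtb16+ cells. Its log2 ratios, -0.24 in CD8 T, -0.21 in CD4 T and -0.23 in Zbtb16+ cells, were small with intervals that did not reach 0. With the looser exclusion (460 and 1274 Zbtb16+ cells) Trac in Zbtb16+ cells was at 707 and 650 CPM, a log2 ratio of -0.12 (-0.22 to -0.03). In that gate the log2 ratio was then -0.40 (-0.47 to -0.33) for Trbc2, -0.25 (-0.35 to -0.15) for Cd3e and -0.05 (-0.16 to 0.06) for Cd3d.

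Of the CD3 chains, Cd3g was the highest in every alpha-beta gate and Cd3d the lowest. In CD8 T cells Cd3g stood at 693 and 795 CPM, Cd3e at 602 and 662 CPM and Cd3d at 512 and 570 CPM. The CD4 T gate held the same order, with Cd3g at 687 and 676 CPM and Cd3d at 428 and 422 CPM. Zbtb16+ cells had more Cd3g than CD4 T cells in both libraries, 1.40-fold (1.25 to 1.57) in the untreated and 1.23-fold (1.16 to 1.31) in the ConA library, and less Cd247 (343 and 415 CPM against 813 and 857 CPM). Expressed as UMIs these levels are of transcript ends, so no division by length was made, and the order of the genes also carries their differing capture.

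Counted per cell, Trac, a Trbc and a CD3 gene were found together in 69.9% and 72.6% of CD8 T cells, 72.4% and 67.0% of CD4 T cells and 62.4% and 64.0% of Zbtb16+ cells. In B cells the same combination was found in 0.0772% and 0.807% of cells. The share moved with depth: with every cell thinned to 1000 UMIs, leaving out 1 untreated and 22 ConA cells shallower than that, the share in CD8 T cells was 22.4% and 24.8%. A CD3 gene of any kind was found in 94.4% and 96.9% of CD8 T cells at full depth, and none of the 10 genes in 0.621% and 0.921%.

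**Figure D2:**
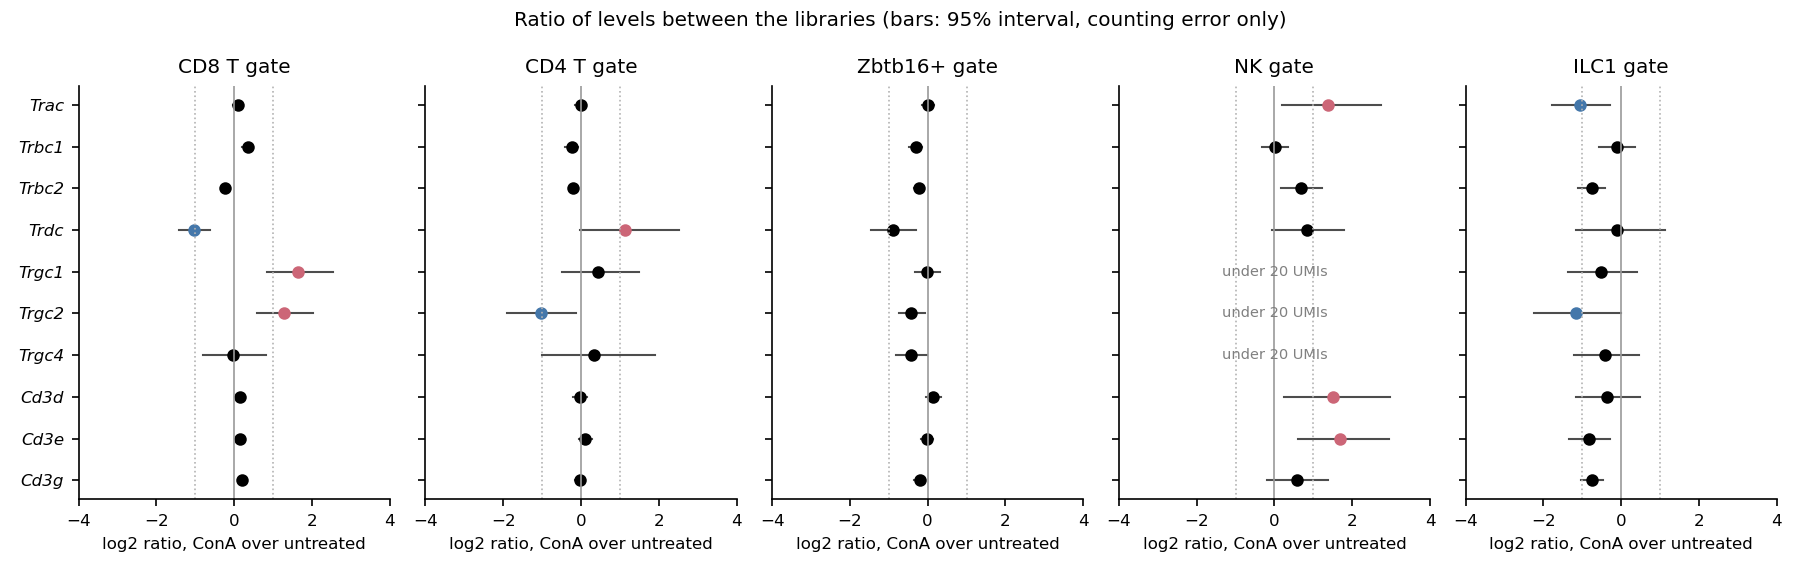
Log2 ratio of the level in ConA over untreated for each gene in 5 gates. Bars are 95% intervals for counting error, drawn up to a log2 ratio of 4 either way, and dotted lines mark 2-fold, with genes past it in red (higher) or blue (lower). The alpha-beta and CD3 genes sit between -0.31 and 0.34 in the 3 alpha-beta gates, and the members past 2-fold in the CD8 T and CD4 T gates are delta and gamma constant genes of low level.

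Members past 2-fold between the libraries were few and of low level in the CD8 T and CD4 T gates. In CD8 T cells Trgc1 and Trgc2 were past 2-fold higher in ConA, where 3.65% of 8242 genes were, and Trdc was past 2-fold lower, where 2.46% were. Trgc1 went from 11.8 to 36.7 CPM, Trgc2 from 16.0 to 38.8 CPM, and Trdc from 64.2 to 31.3 CPM. With the looser exclusion Trgc2 was at 22.7 and 39.9 CPM, short of 2-fold. The median log2 ratio of the 10 members was 0.15 beside 0.09 over all genes measured in that gate. In CD4 T cells Trdc (8.0 and 17.5 CPM) was past 2-fold higher and Trgc2 (22.9 and 11.2 CPM) past 2-fold lower, beside 3.37% and 2.72% of 8239 genes. These CD4 T levels rest on as few as 7 untreated UMIs of Trdc, and with the looser exclusion their log2 ratios were 0.92 and -0.89. The median of the 9 members measured in CD4 T cells was -0.02 beside 0.06 over all genes. No member was past 2-fold in Zbtb16+ cells, where 3.77% and 3.63% of 8428 genes were, and their median was -0.22 beside 0.02. There Trdc went from 61.8 to 33.3 CPM (log2 ratio -0.89, -1.45 to -0.31). With stricter gates, which ask for 2 UMIs of the defining gene and 2 T cell genes, it went from 54.9 to 66.3 CPM.

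The gamma and delta constant genes were higher in Zbtb16+ than in CD4 T cells, in both libraries. Trgc1, Trgc2 and Trgc4 stood at 153, 158 and 111 CPM in untreated and at 152, 118 and 82.1 CPM in ConA Zbtb16+ cells. In CD4 T cells they were at 13.7, 22.9 and 6.86 CPM in the untreated and 18.6, 11.2 and 8.58 CPM in the ConA library. A Trgc UMI was found together with Trac in 33.1% and 31.3% of Zbtb16+ cells against 4.85% and 5.74% of CD4 T cells, at median depths of 3175 and 3108 against 3158 and 3352 UMIs. Trdc was at 61.8 and 33.3 CPM in Zbtb16+ and 8.0 and 17.5 CPM in CD4 T cells, 7.73-fold (3.41 to 20.5) and 1.90-fold (1.33 to 2.76) higher. It was found with Trac in 2.25% and 2.24% of Zbtb16+ and in 1.49% and 2.87% of CD4 T cells. CD8 T cells had Trdc at 64.2 and 31.3 CPM, close to the Zbtb16+ levels. Of the gamma and delta constant genes, only the gamma ones were therefore higher in Zbtb16+ cells than in both other alpha-beta gates in both libraries. A Trgc UMI with or without Trac was found in 47.2% and 42.7% of Zbtb16+ cells, and Trdc with a Trgc in 5.62% and 3.70%.

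Use of the 2 beta constant genes differed between T cells and NK cells. Of all Trbc UMIs, Trbc1 made up 28.1% (26 to 30.1) and 36.9% (35.9 to 37.9) in CD8 T cells, 28.4% and 28.1% in CD4 T cells and 32.8% and 31.6% in Zbtb16+ cells. The intervals of the libraries did not overlap in CD8 T cells and overlapped in the other 2 gates. In CD8 T cells Trbc1 was higher, at 448 and 568 CPM (log2 ratio 0.34, 0.21 to 0.48), and Trbc2 was lower. In the NK gate the share was 74.9% (67.9 to 81.0) and 65.2% (59.1 to 71.1), and in the ILC1 gate 34.3% (26.5 to 42.7) and 44.9% (40.5 to 49.3).

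Single cells fell mostly on the Trbc2 side. Among CD8 T cells with 5 or more Trbc UMIs, 90 of 169 untreated and 342 of 792 ConA cells had at most 20% Trbc1, and 19 and 109 had at least 80%. The rest, 35.5% and 43.1%, had both genes in between. In CD4 T cells 46.5% and 55.6% had at most 20% Trbc1 and 10.1% and 8.83% had at least 80%. In Zbtb16+ cells these shares were 51.6% and 50.1%, and 11.6% and 10.2%. The part that free Trbc1 RNA and the likeness of the genes have in the middle group was not tested.

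**Figure D3:**
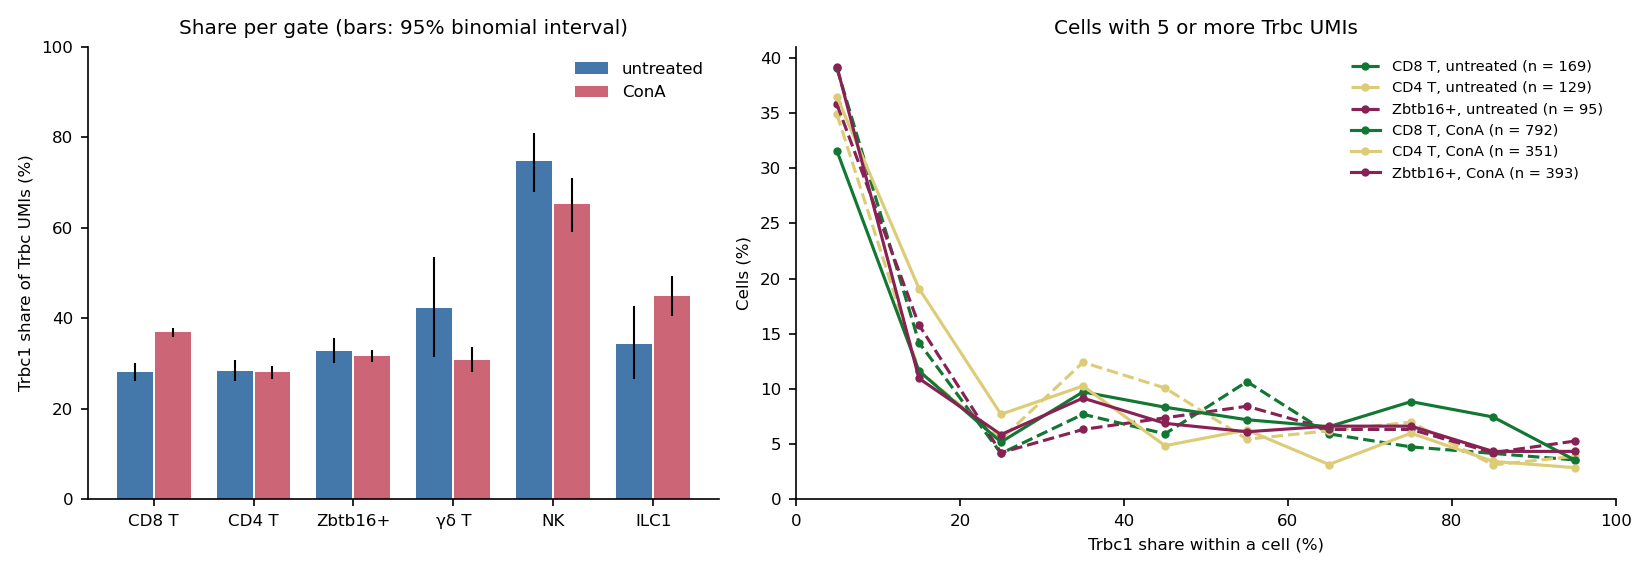
Left, Trbc1 as a share of Trbc1 plus Trbc2 UMIs by gate for the untreated (blue) and ConA (red) libraries, with 95% binomial intervals. Right, the share within single cells with 5 or more Trbc UMIs, in steps of 10%, for the alpha-beta gates (dashed, untreated; solid, ConA). The NK gate stands apart at 74.9% and 65.2%, and in each T cell gate the first step, up to 10% Trbc1, holds the most cells.

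The delta and gamma constant genes were highest in the gamma-delta gate, an order that the gate itself in part set. It takes cells by gamma and delta variable genes among others, and a joined transcript carries the variable and the constant part together. Of its 299 ConA cells 154 had Trdv4 and 145 had Trgv2. In the 299 ConA cells Trdc stood at 1074 CPM (1014 to 1136) and Trgc1 at 1068 CPM (1008 to 1130), with Trgc2 at 323 and Trgc4 at 223 CPM. The 14 untreated cells had Trdc at 538, Trgc1 at 459, Trgc2 at 269 and Trgc4 at 348 CPM. With the looser exclusion (55 and 379 cells) Trdc was at 481 and 1028 CPM, Trgc1 at 399.9 and 1019 CPM, and Trgc2 at 369 and 331 CPM. Trgc1 was past 2-fold higher in ConA in the gate as first set, where 20.1% of 7028 genes were past 2-fold higher and 9.9% lower, and Trdc and Trgc1 were with the looser exclusion, where 9.76% of 8092 genes were. Trgc2 had a log2 ratio of 0.26 (-0.44 to 1.06) in the first and -0.16 (-0.48 to 0.18) in the second. A gate of 1 gamma-delta gene and 1 T cell gene (239 and 913 cells) gave log2 ratios of 1.20 (1.0 to 1.40) for Trdc, 1.22 (1.02 to 1.42) for Trgc1, -0.43 (-0.61 to -0.25) for Trgc2 and -0.30 (-0.53 to -0.07) for Trgc4, where 4.39% of 8594 genes were past 2-fold higher. Both the looser and the 1-gene gate were set after seeing the data. With stricter gates, which here ask for more gamma-delta genes per cell, 4 untreated cells were left, and Trgc1 was at 867 and 1291 CPM, short of 2-fold. Trgc2 (108 and 346 CPM, on 2 untreated UMIs) was then past 2-fold higher, where 35% of 5573 genes were. Trac and Trbc1 were past 2-fold lower, where 13.2% were. The mix of cells also differed between the libraries: Scart1 was found in 241 of 299 ConA cells and in 5 of 14 untreated cells of the first gate, and the part of this mix in the ratios was not tested.

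The CD3 genes of the ConA gamma-delta gate were uneven against those of CD8 T cells. Cd3g stood at 1568 CPM, 1.97-fold (1.86 to 2.08) the CD8 T level of the same library, and Cd247 at 1343 CPM, 2.26-fold (2.12 to 2.40). Cd3e (800 CPM) and Cd3d (523 CPM) were closer to the CD8 T levels of 662 and 570 CPM. All 3 CD3 genes were found in 71.6% of the cells, and no cell lacked all 10 genes, which for 299 cells allows a share of up to 1.0%.

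Alpha and beta constant transcripts were also present among these cells. Trdc was found without Trac in 163 of the 299 cells, with Trac in 77, Trac without Trdc in 36 and neither in 23. In the 240 cells with Trdc, Trac stood at 114 CPM (93.5 to 138), above the 41.5 CPM of B cells and below the 548 CPM of CD8 T cells. Trbc2 stood far higher in the same cells, at 640 CPM, and was found in 79.1% of the 163 cells without Trac. Trbc1 was at 304 CPM there. Trac in the whole gate was at 191 CPM, where 36 cells had Trac and no Trdc at 744 CPM.

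Cells with UMIs of a single gamma variable gene held the constant genes in different shares, given here over both libraries. In 59 such cells with Trgv6, 75.6% (70.6 to 80.1) of 332 Trgc UMIs were Trgc1, and 67.8% of the cells had Trdc. In 760 cells with Trgv2, the most frequent variable gene, 45.7% of 2699 Trgc UMIs were Trgc2 and 35.1% Trgc1. Of these cells 66.2% had Trac and 24.9% had Trdc. The libraries differed within the Trgv2 cells, with Trgc1 at 26.6% (23.7 to 29.6) in the 241 untreated and 39.6% (37.3 to 41.9) in the 519 ConA cells, and of the 59 Trgv6 cells 54 were ConA cells. Within the ConA library alone Trgc1 was at 76.6% (71.4 to 81.3) with Trgv6. In 120 cells with Trgv1, 35.1% of 373 UMIs were Trgc4 against 19.2% in Trgv2 cells and 12.3% in Trgv6 cells. The largest share in the Trgv1 cells was still Trgc1, at 40.5% (35.5 to 45.7). In the ConA gamma-delta gate as a whole 66.1% (63.9 to 68.3) of Trgc UMIs were Trgc1, and in ConA Zbtb16+ cells 43.1% (40.0 to 46.2) were.

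**Figure D4:**
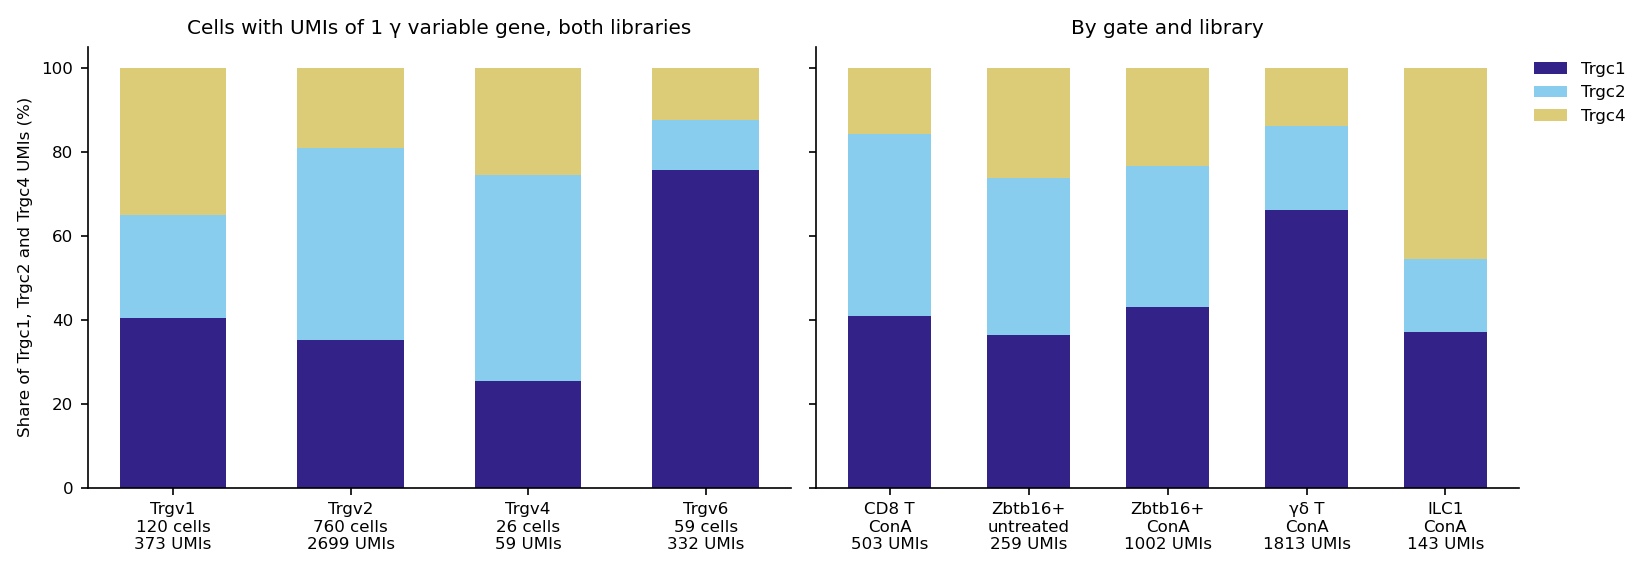
Trgc1, Trgc2 and Trgc4 as shares of their summed UMIs, left in cells with UMIs of 1 gamma variable gene (both libraries), right by gate and library, with the UMIs behind each bar under it. Trgc1 takes 75.6% with Trgv6 and 66.1% in the ConA gamma-delta gate, and Trgc4 takes 45.5% in the ConA ILC1 gate (the untreated NK gate has 4 UMIs in all).

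NK cells carried Trbc1 and, at lower levels, Trbc2 and Trdc above the B cell background, with little Trac. In the NK gate Trbc1 stood at 318 (267 to 376) and 323 (276 to 376) CPM, 13.6-fold (9.97 to 18.7) and 8.57-fold (6.88 to 10.7) the B cell level. It was found in 51.4% and 56.2% of the cells, and in 38.9% and 32.0% it was found without Trac or Trbc2. After thinning to 1000 UMIs it was found in 23.4% and 27.5% of NK cells, against 28.3% and 34.9% of CD8 T and 2.46% and 4.61% of B cells. Trbc2 (107 and 172 CPM) was 3.16-fold (2.16 to 4.57) and 3.01-fold (2.34 to 3.85) the B cell level, and Trdc (37.2 and 65.9 CPM) 8.80-fold (3.83 to 20.96) and 9.43-fold (5.65 to 15.8). Gamma constant genes were low. In ConA NK cells Trgc1 (27.1 CPM, 14 UMIs) was 2.59-fold (1.32 to 4.77) and Trgc4 (17.4 CPM, 9 UMIs) 3.19-fold (1.31 to 7.08) the B cell level. Untreated NK cells had 1 and 2 UMIs of them, and Trgc2 had 1 and 2 UMIs in the untreated and ConA libraries.

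In the NK gate as first set Trac did not differ from the B cell level beyond counting error, and the CD3 genes were at most 2.08-fold that level. Trac was at 18.6 and 48.4 CPM beside 19.2 and 41.5 CPM in B cells. Cd3d was at 16.3 and 46.5 CPM beside 15.4 and 28.8 CPM, Cd3e at 20.9 and 67.8 CPM beside 15.7 and 38.9 CPM, and Cd3g at 53.4 and 79.4 CPM beside 25.7 and 50.9 CPM. Cd3g in both libraries (2.08-fold, 1.23 to 3.38, and 1.56-fold, 1.09 to 2.18) and Cd3e in ConA cells (1.74-fold, 1.18 to 2.52) were above B cells beyond counting error. Mononuclear phagocytes had lower levels than B cells, Trac at 9.09 and 24.5 CPM and Cd3g at 14.9 and 28.0 CPM. The NK gate thus stood further above that background in Trac and the CD3 genes. The NK gate, like the ILC1 gate, bars cells with a UMI of Cd5, Cd6, Cd28 or Themis, so T cells with such a UMI are left out of it by rule. Trac, Cd3d and Cd3e were past 2-fold higher in ConA than in untreated NK cells, where 5.32% of 6490 genes were, and none of the 7 members measured was past 2-fold lower, where 4.53% were. The median of these 7 was 0.83 beside 0.04 over all genes. The B cells of these libraries differed in the same direction, by log2 ratios of 1.11 for Trac, 0.91 for Cd3d and 1.3 for Cd3e against 1.38, 1.52 and 1.70 in the NK gate. With the looser exclusion (448 and 276 NK cells) 6 of 9 members measured were past 2-fold higher, where 3.47% of 8355 genes were. Trac was among them at 18.2 and 66.4 CPM, and Trbc1 was at 295 and 302 CPM. In these ConA NK cells the interval of Trac (50.6 to 85.7 CPM) lay above the 41.5 CPM of B cells, unlike in the gate as first set. In the gate as first set no NK cell had all 3 CD3 genes, which allows shares of up to 2.08% of 144 and 1.78% of 169 cells. Cd247, the zeta chain, was at 488 and 413 CPM, near the 530 and 595 CPM of CD8 T cells.

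In the ILC1 gate Cd3g stood apart from its partner chains. It was at 1432 (1204 to 1690) and 849 (770 to 933) CPM, in the untreated library 2.07-fold (1.72 to 2.48) and in the ConA library 1.07-fold (0.964 to 1.18) the CD8 T level. Cd3e was at 440 and 249 CPM and Cd3d at 174 and 134 CPM, and Trac at 235 and 112 CPM. Some of these cells carried an alpha or delta constant gene: Trac was found in 25.8% and 23.9% and Trdc in 16.1% and 12.3% of the cells. The gate bars cells with Cd5, Cd6, Cd28 or Themis, but not every T cell shows a UMI of these.

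The cells with neither Trac nor Trdc, 18 of 31 and 102 of 155, kept Cd3g without the other CD3 chains. Cd3g was at 1301 and 699 CPM in them and was found in 55.6% and 55.9%, whereas Cd3d was at 17.6 and 28.3 CPM and Cd3e at 35.1 and 59.8 CPM, near the B cell levels. Against NK gate cells with neither gene, Cd3g was 22.7-fold (13.7 to 39.3) higher in the untreated and 12.7-fold (8.05 to 21.3) higher in the ConA library. Cd3d and Cd3e did not differ beyond counting error, with ConA ratios of 0.516 (0.207 to 1.19) and 0.908 (0.470 to 1.73). The untreated ratios, 1.02 (0.022 to 8.42) and 1.53 (0.159 to 7.68), rest on 1 and 2 ILC1 UMIs and are too wide to show a lack of difference. Trgc4 was also high, at 176 and 142 CPM, while Trgc1 was at 17.6 and 31.5 CPM and Trgc2 had 0 and 3 UMIs. Against the same NK cells Trgc4 was 30.6-fold (6.53 to 288) and 8.60-fold (3.66 to 24.7) higher, in the untreated library on 10 against 2 UMIs. Trbc1 (545 and 513 CPM) and Trbc2 (650 and 523 CPM) were both abundant, so beta constant use was near even in these cells and not on the Trbc1 side as in NK cells.

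**Figure D5:**
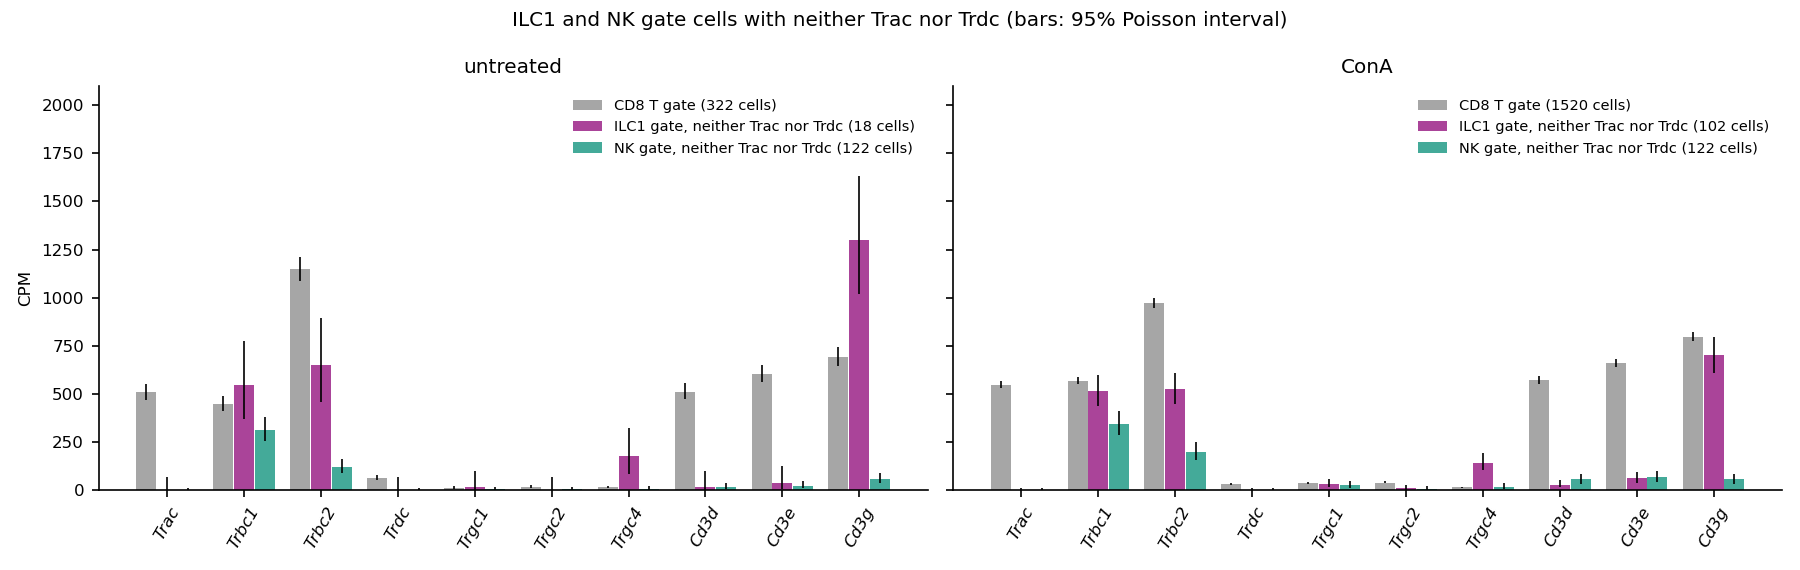
Level of the 10 genes (CPM) in CD8 T cells (grey) and in the ILC1 (purple) and NK (green) gate cells with neither Trac nor Trdc, with 95% Poisson intervals, for the untreated (left) and ConA (right) libraries. Trac and Trdc are at 0 in the purple and green bars by selection. The purple Cd3g bars reach 1301 and 699 CPM beside Cd3d and Cd3e of at most 59.8 CPM.

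Between the libraries all 10 members had lower values in the ConA ILC1 gate as first set, with a median log2 ratio of -0.64 beside 0.08 over all genes measured. Trac and Trgc2 were past 2-fold lower, where 5.46% of 5235 genes were, and none was past 2-fold higher, where 11.9% were. Cd3g had a log2 ratio of -0.75 (-1.03 to -0.47), Cd3e of -0.82 (-1.33 to -0.29) and Trbc2 of -0.75 (-1.10 to -0.40), while Trbc1 was nearly equal at -0.11 (-0.56 to 0.36). The untreated gate had 31 cells. With the looser exclusion (127 and 227 cells) Cd3g was at 1492 and 849 CPM, a log2 ratio of -0.81 (-0.97 to -0.66). Trac was at 137 and 98.2 CPM, Trbc1 had a log2 ratio of 0.04, and Trgc2 was the 1 member past 2-fold lower, where 4.17% of 7505 genes were. With stricter gates (16 and 103 cells) Trdc (18.1 and 74.2 CPM) and Trgc1 (36.3 and 99.8 CPM), on 1 and 2 untreated UMIs, were past 2-fold higher, where 16% of 4099 genes were, and Cd3g had a log2 ratio of -0.28 (-0.70 to 0.16). The NK marker list moved with this difference, from 9358 to 5481 CPM in the gate, and its part was not tested.

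The 3 CD3 genes lie close together on mouse chromosome 9, so their parting in the ILC1 gate is between neighbours. Their RefSeq promoter windows (GRCm38.p6) run from 250 bases before to 50 after the start site, and RefSeq sequences of this kind were at hand for 3 of the 10 members. They were searched on both strands for ACTTCC (a form of the ETS factor site), TGTGGT (RUNX), CACCTG (a form of the E-box) and TATAAA (the TATA box). These occur in 24.1%, 16.9%, 20.03% and 14.2% of 27025 promoters. Shorter or other forms of these sites were not searched for. No 2 of these motifs overlapped here. Matches are in capitals. Cd3g lies at chr9:44980382-44980681 on the minus strand, Cd3d at chr9:44981536-44981835 on the plus strand and Cd3e at chr9:45009562-45009861 on the minus strand.
Cd3g: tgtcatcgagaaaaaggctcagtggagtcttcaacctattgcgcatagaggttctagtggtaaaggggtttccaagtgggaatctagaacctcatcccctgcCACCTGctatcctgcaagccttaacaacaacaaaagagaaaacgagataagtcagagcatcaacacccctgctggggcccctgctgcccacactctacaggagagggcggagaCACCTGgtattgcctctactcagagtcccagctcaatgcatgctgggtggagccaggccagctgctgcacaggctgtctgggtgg
Cd3d: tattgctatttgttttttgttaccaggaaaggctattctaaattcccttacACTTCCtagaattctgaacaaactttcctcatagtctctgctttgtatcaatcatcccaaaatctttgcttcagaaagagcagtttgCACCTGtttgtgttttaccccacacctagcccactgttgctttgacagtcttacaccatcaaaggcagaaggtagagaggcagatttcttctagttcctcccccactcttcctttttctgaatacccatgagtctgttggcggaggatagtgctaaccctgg
Cd3e: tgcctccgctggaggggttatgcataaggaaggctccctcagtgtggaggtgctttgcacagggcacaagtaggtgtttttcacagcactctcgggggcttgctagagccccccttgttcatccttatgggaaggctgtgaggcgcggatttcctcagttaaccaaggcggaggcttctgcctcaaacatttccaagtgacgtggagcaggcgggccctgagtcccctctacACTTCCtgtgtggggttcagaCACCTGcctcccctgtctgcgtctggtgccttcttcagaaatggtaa
The windows of Cd3d and Cd3e each held 1 ACTTCC and 1 CACCTG, and that of Cd3g held 2 CACCTG and no ACTTCC. None of the windows held the RUNX or TATA letters. The Cd3g window does hold shorter ETS-like letters (TTCC and GGAA), so it is not a window without any ETS-like stretch. A match of letters is a description, not a binding site.

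Around the receptor, few signalling genes reached 2-fold between the libraries, while several were higher by less than that in ConA CD8 T and CD4 T cells. Of 35 genes of proximal signalling, none was past 2-fold in CD8 T or Zbtb16+ cells, of 28 measured none was in NK cells, and in CD4 T cells 1 was, Ptpn22, a phosphatase that restrains receptor signalling, at 176 and 355 CPM. The list's median log2 ratio was 0.26 in CD8 T and 0.32 in CD4 T cells beside 0.09 and 0.06 over all genes measured there. At 1.5-fold 9 of the 35 were higher and none lower in CD8 T cells, where 13.1% and 7.45% of genes were, and 7 were higher and 1, Txk, lower in CD4 T cells, where 11.7% and 7.8% were. In CD8 T cells the kinase Fyn went from 497 to 986 CPM (log2 ratio 0.99, 0.87 to 1.11), Cd6 from 87.0 to 162 CPM (0.90, 0.60 to 1.21), Cd5 from 127 to 230 CPM (0.86, 0.62 to 1.12) and the kinase Lck from 317 to 515 CPM (0.70, 0.55 to 0.86). In CD4 T cells the kinase Txk went from 439.9 to 270.3 CPM (-0.70, -0.88 to -0.52). These 5 were named after their values were seen, and Cd5 and Cd6 also served to set the gates. In ILC1 cells 2 of 29 were higher, Vav1 (51.1 and 116 CPM) and Plcg1 (10.2 and 64.2 CPM), both on few UMIs and named after their values were seen. The recombination genes Rag1, Rag2 and Dntt and the pre-receptor chain Ptcra were below the minimum level in each of the 5 gates. The adaptors Fcer1g, Tyrobp and Hcst had no member past 2-fold in any gate. Fcer1g was at 2893 and 2100 CPM in NK and 3017 and 1958 CPM in ILC1 cells against 242 and 132 CPM in CD8 T cells.

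Of 7 transcription regulators of the lineage, 4 were past 2-fold higher in ConA NK cells, where 5.32% of genes were, and none lower. These were Lef1 (97.5 and 258 CPM), Gata3 (65.0 and 143 CPM) and, named after their values were seen, Tcf7 (51.1 and 116 CPM) and Bcl11b (25.5 and 65.9 CPM). In B cells Bcl11b was at 11.9 and 28.6 CPM (log2 ratio 1.26, 0.69 to 1.88), Tcf7 at 13.8 and 24.7 CPM and Gata3 at 4.61 and 11.6 CPM, so these differed in the same direction there. The part of free RNA in the NK values was not tested, and Lef1 is barred from the B gate by rule. Gata3 was also past 2-fold higher in CD8 T cells (36.3 and 85.4 CPM, log2 ratio 1.23, 0.78 to 1.72), and Bcl11b in ILC1 cells (112 and 233 CPM). In ILC1 cells Gata3 (30.7 and 142 CPM, on 74 UMIs, named after its values were seen) was the other of 2. No regulator was past 2-fold lower in any of the 5 gates compared.

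The genes whose levels ran most like the CD3 genes were sought over 18 values, 9 gates in each of 2 libraries. Against the mean of Cd3d, Cd3e and Cd3g, the highest Pearson r of log2(CPM + 1) among 6753 genes belonged to Ptpn13 (0.969), Thy1 (0.958), Camk4 (0.955), Bcl11b (0.954) and Icos (0.952), of which Camk4 and Icos had served to set the gates. Against Trdc they were Odc1 (0.905), Gab3 (0.901), Nol4l (0.899), Clnk (0.888) and Adgrg5 (0.871). These values describe likeness over gates that share a library, its depth and its free RNA.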

How the data were processed

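The deposited files are matrices of raw UMI counts by gene and cell barcode, not normalized. Their file headers carry version 8.0.1 of the counting software, while Cell Ranger 6.0.1, Seurat 4.3.0 and mm39 stand in the submitters' notes on processing. Total UMIs were 71289226 (untreated, 18088 barcodes) and 73589264 (ConA, 18762 barcodes). Cells were kept with at least 500 UMIs, 300 genes and at most 10% mitochondrial UMIs. Doublets were scored by nearest neighbours of simulated doublets, and the top 13.3% of cells were removed in each library.

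Gates were set per cell by UMIs of marker genes, without members. UMIs were summed per gate, given per 1000000 UMIs (CPM) with exact Poisson intervals, shares with exact Clopper-Pearson intervals, and ratios with exact conditional intervals, in Python 3.11.15 and scipy 1.17.1. The code was tested on simulated data. Called means at least 2-fold, among genes of at least 10 CPM and 20 UMIs. All members are named; other pathway genes are named if 2-fold on at least 100 UMIs, and the 5 genes most like the members. Members, lists and gates were chosen with earlier results of these data known.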

Additional observations from a re-analysis of the deposited data

How the results depend on the processing

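No paired analysis was possible because each group has 1 library. Of 357 log2 ratios of members recomputed under an alternative, 30 changed sign between finite values, none of them of a ratio past 2-fold in the gates as first set. In 1 of the 30 the first interval left out 0, Trdc in Zbtb16+ cells, at -0.89 and, with stricter gates, 0.27; in none did both intervals leave out 0. Outside this count, Trgc2 in CD4 T cells was past 2-fold lower in the gates as first set, at a log2 ratio of -1.03. With stricter gates it had 0 untreated and 15 ConA UMIs, the opposite direction, without a finite ratio. Gates hold few untreated ILC1 and gamma-delta cells, and depth limits detection per cell.

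Counts of members past the fold are given with the share of all genes at the same setting. Asking for 1.5-fold gave 1 member lower in Zbtb16+ (11.2% of genes), 5 of 7 higher in NK (16.6%) and 5 of 10 lower in ILC1 cells (14%). Asking for 50 CPM gave 0 higher (2.48%) and 0 lower (1.62%) in CD8 T, 0 higher (1.42%) and 0 lower (1.83%) in CD4 T and 0 higher (2.7%) in NK cells. Without doublet removal 1 was higher in CD8 T cells (3.17%). Stricter gates asked for 2 UMIs of the defining gene, with 2 T cell genes in the CD8 T, CD4 T and Zbtb16+ gates. In the gamma-delta gate they asked instead for more gamma-delta genes. Stricter gates gave 1 higher in CD8 T (4.16%), 0 higher (8.04%) and 0 lower (2.99%) in CD4 T, and 2 higher (16%) and 1 lower (6.07%) in ILC1 cells. The looser exclusion gave 1 higher in CD8 T (2.65%), 0 higher (2.12%) and 0 lower (2.13%) in CD4 T, 6 higher in NK (3.47%) and 1 lower in ILC1 cells (4.17%). The broader gates gave 5 higher in NK (3.22%) and 1 lower in ILC1 cells (4.14%).

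The share of cells with Trac, a Trbc and a CD3 gene was, with stricter gates, 78.2% in ConA CD8 T, 79.6% in untreated and 79.3% in ConA CD4 T, and 68.8% in ConA Zbtb16+ cells. With the looser exclusion it was 70.0% in untreated Zbtb16+ and 6.16% in ConA NK cells, and in the broader gates 42.7% in ConA gamma-delta and 6.55% in ConA NK cells. Thinned to 1000 UMIs it was, untreated then ConA, 22.4% and 24.8% in CD8 T, 28.0% and 26.2% in CD4 T, 33.9% and 27.6% in Zbtb16+ and 0% and 0% in NK cells, and in ConA 9.09% in gamma-delta T and 1.97% in ILC1 cells.

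The Trbc1 share was 26.4% in ConA CD4 T cells with stricter gates, 31.6% in untreated CD4 T and 27.3% in untreated gamma-delta T cells with the looser exclusion, and 34.2% in the broader ConA gamma-delta gate. Counted as cells with Trbc1 alone among cells with 1 of the genes, it was 14.8% and 13.7% in CD8 T, 8.89% and 12.2% in CD4 T, 17.1% and 16.5% in Zbtb16+, 16.7% and 16.0% in gamma-delta T and, in ConA, 71.1% in NK cells; the cause of these changes was not tested. In the ConA gamma-delta gate Trgc1 made up 69.0% with stricter gates, and in the broader gate Trgc1, Trgc2 and Trgc4 made up 55.7%, 26.7% and 17.6%. A mitochondrial maximum of 20%, a minimum of 1000 UMIs and a required Tyrobp UMI moved none of these. The looser and broader gates and the Tyrobp rule were chosen after seeing the data.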

Other observations

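Cells with Trac, a Trbc and a CD3 gene that no gate took had levels of Trac, Trbc and CD3 genes close to those of such cells inside the gates, and gamma and delta genes that differed. In the untreated library 1559 cells outside and 548 inside had Trac at 708 and 720 CPM, Trbc2 at 1250 and 1278 CPM and Cd3g at 883 and 814 CPM. Trgc2 was at 89.3 CPM outside and 59.5 CPM inside, Trgc1 at 71.1 and 51.5 CPM and Trdc at 51.6 and 37.9 CPM. In the ConA library, with 2260 cells outside and 2340 inside, Trac was at 707 and 727 CPM, and the order of the others was the opposite, with Trgc2 at 57.2 and 67.5 CPM, Trgc1 at 62.3 and 93.5 CPM and Trdc at 32.3 and 58.2 CPM. These cells were chosen by 3 of the kinds of gene described, so their levels of Trac, Trbc and CD3 are a description only.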
